A study of Mus musculus with 7 samples.

Results

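The nuclear-encoded subunit genes of oxidative phosphorylation (OXPHOS) were examined in mouse Group 3 medulloblastoma (G3 MB). Members were chosen by gene name in the count table, as names starting with Nduf followed by a, b, c, s or v and a number (complex I), Sdha to Sdhd (complex II), Uqcr (complex III), Cox4 to Cox8 (complex IV) or Atp5 and a letter (complex V), and 1 name with -ps was left out. The rule found 86 of 34592 listed genes, of which 37 belong to complex I, 4 to complex II, 8 to complex III, 19 to complex IV and 18 to complex V. Of these, 83 passed the filter on low counts and were tested among 17389 genes, while Cox7b2, Cox8b and Cox8c did not pass it. The names do not follow the complexes exactly. Cox4nb, listed in RefSeq as Emc8, and Atp5l2, listed there as a pseudogene, match by name alone, and Ndufa4, Ndufa4l2, Atp5s and Atp5sl are not subunits of the complex their prefix gives.

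Oxidative phosphorylation is carried out in the inner mitochondrial membrane. Complexes I and II pass electrons from NADH and succinate to ubiquinone, complex III hands them to cytochrome c, complex IV reduces oxygen with them, and complex V, the ATP synthase, makes ATP from the proton gradient that complexes I, III and IV build. Complex II is encoded by nuclear genes alone, whereas the other complexes also hold subunits encoded in mitochondrial DNA.

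The study asked how enforced expression of WDR11 changed the transcriptome of G3 MB. The tumors came from 1 tumorsphere line, grown from cerebellar granule neuron progenitors that lacked Trp53 and Cdkn2c and carried a retrovirus for Myc and GFP. The spheres were infected, without sorting, with a lentivirus that drives human WDR11 from an EF1 promoter together with copGFP (WDR11OE, 4 tumors), or with the empty vector according to the methods (control, 3 tumors, whose treatment label is none), and were implanted in the cortex of CD1 nu/nu mice. Pieces of tumor were taken when mice were moribund, so RNA of the host tissue could be part of each sample. Library totals were between 32116095 and 87141305 counts. Mouse Wdr11 was at 58.3 to 59.3 CPM (read counts relative to the scaled library total) in control and 61.0 to 68.9 CPM in WDR11OE tumors, and this mouse gene is not the human transgene. Reads in Trp53 were present in every tumor, at 27.8 to 53.9 CPM. Atoh1, a marker of granule progenitors, was at 0 in all 7 tumors, Barhl1 was at 0 in all control tumors and Otx2 was at or below 0.306 CPM. Other genes on the same list of granule lineage and Group 3 markers had reads in every tumor. Pax6 was at 17.2 to 31.2 CPM, Zic1 at 1.76 to 16.8 CPM and Zic2 at 2.57 to 7.33 CPM. Npr3 was at 3.92 to 9.84 CPM and Neurod1 at 0.0237 to 2.54 CPM. Myc was at 812 to 1109 CPM in control and 278 to 431 CPM in WDR11OE tumors. Sample identifiers of the control and WDR11OE groups come from separate number series, and what that separation stands for cannot be told apart from the treatment. The labels do not say whether tumors came from separate infections, so the p-values measure only the spread between these tumors.

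Promoter sequence was available in RefSeq for 69 of the 86 members, with windows of 250 bases before to 50 bases after the start. Sets of letters known as the cores bound by regulators of mitochondrial genes were searched on both strands, allowing no mismatch: GCATGCGC for NRF1, CCGGAAGT for GABPA and other ETS factors, AAGATGGC for YY1 and CAAGGTCA for ESRRA. NRF1 letters were in 10 members (14.5%) against 3.05% of the 27025 genes with a window, and YY1 letters were in 11 members (15.9%) against 3.19%. ETS letters were in 5 members (7.25%) against 4.31%, and ESRRA letters in 4 (5.80%) against 1.76%. Any of them was found in 28 members (40.6%) against 11.6% of all genes with a window. The 27025 genes were not limited to genes that passed the filter on low counts, as nearly all members did. The share among tested genes was not counted. Among members that were higher in WDR11OE tumors by the test described in the next paragraphs, 12 of 31 (38.7%) held a match, and among the other tested members 16 of 36 (44.4%) did. A match is a description of the letters and not a measured site. The windows of Cox6a1 and Uqcrc1, the only true subunits that were lower, are shown with those of Atp5k, Uqcrh and Ndufs4, each higher under every refit of the test, with the matched letters in capitals. The windows lie on NCBIM37 chromosome 5 from 115798918 to 115799217 (Cox6a1, minus strand), chromosome 9 from 108838411 to 108838710 (Uqcrc1, plus strand), chromosome 5 from 108863369 to 108863668 (Atp5k, minus strand), chromosome 4 from 115747626 to 115747925 (Uqcrh, minus strand) and chromosome 13 from 115178253 to 115178552 (Ndufs4, minus strand), where each 300-base sequence had 1 exact match on its chromosome.
Cox6a1: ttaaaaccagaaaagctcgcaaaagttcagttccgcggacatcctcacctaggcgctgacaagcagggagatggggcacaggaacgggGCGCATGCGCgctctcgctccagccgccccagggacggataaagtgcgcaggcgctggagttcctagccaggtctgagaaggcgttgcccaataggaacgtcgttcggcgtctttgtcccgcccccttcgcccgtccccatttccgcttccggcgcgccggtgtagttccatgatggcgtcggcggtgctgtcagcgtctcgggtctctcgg
Uqcrc1: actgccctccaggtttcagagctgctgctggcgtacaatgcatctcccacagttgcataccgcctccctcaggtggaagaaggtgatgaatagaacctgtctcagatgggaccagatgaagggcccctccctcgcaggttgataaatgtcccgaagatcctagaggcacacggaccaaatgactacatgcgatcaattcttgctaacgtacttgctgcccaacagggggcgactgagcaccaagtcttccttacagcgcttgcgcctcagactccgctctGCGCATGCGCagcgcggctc
Atp5k: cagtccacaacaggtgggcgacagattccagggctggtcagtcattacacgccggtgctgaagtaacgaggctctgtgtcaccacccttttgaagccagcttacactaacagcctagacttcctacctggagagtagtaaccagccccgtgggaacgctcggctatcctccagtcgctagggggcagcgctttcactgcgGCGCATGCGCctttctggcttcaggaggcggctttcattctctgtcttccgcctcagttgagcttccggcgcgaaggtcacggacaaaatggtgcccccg
Uqcrh: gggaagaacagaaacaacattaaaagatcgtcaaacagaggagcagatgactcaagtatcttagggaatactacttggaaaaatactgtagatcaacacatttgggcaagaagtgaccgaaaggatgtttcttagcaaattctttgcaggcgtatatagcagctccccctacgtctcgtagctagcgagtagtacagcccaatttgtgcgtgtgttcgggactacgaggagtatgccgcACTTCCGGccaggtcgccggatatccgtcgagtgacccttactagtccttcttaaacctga
Ndufs4: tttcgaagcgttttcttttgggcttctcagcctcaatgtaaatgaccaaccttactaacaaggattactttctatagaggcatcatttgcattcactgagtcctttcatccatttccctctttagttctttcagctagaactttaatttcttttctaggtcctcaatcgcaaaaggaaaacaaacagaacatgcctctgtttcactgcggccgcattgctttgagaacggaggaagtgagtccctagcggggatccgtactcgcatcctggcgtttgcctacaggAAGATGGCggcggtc
Cox6a1, Uqcrc1 and Atp5k held the NRF1 letters on both strands at overlapping positions, Uqcrh held the ETS letters on the minus strand, and Ndufs4 held the YY1 letters on the plus strand. NRF1 letters were therefore present in windows of both the lower and the higher members. Every window shown is one with a match. Of the other members higher under every refit, Atp5h, Atp5j2 and Ndufa9 also held a match. The windows of Atp5c1, Cox7a2, Cox7b, Ndufa1, Ndufa4, Ndufa5, Ndufb2 and Ndufb5, which were higher under every refit too, held none.

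Subunit transcripts were more often higher than lower in WDR11OE tumors, by small amounts. In the quasi-likelihood test of edgeR, adjusted by the Benjamini-Hochberg method, 36 of 83 members (43.4%) were higher at an adjusted p under 0.05, against 18.1% of all genes tested, and 3 (3.61%) were lower, against 15.8%. Another 44 did not pass the threshold. The log2 fold change was positive in 66 members and negative in 17, with a median of 0.38 beside 0.08 over all genes. The CPM of the 7 tumors did not overlap between groups in 40 members with higher values (48.2%, against 23.5% of all genes) and 3 with lower values (against 19.1%). At the rule of the study, an adjusted p under 0.05, a fold change of 2 or more in size and a mean log2 CPM over 0, 1 member was higher and 0 were lower, against 2.36% and 3.45% of all genes. In bulk tumors, more cells of a type and more RNA per cell cannot be told apart.

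**Figure D1:**
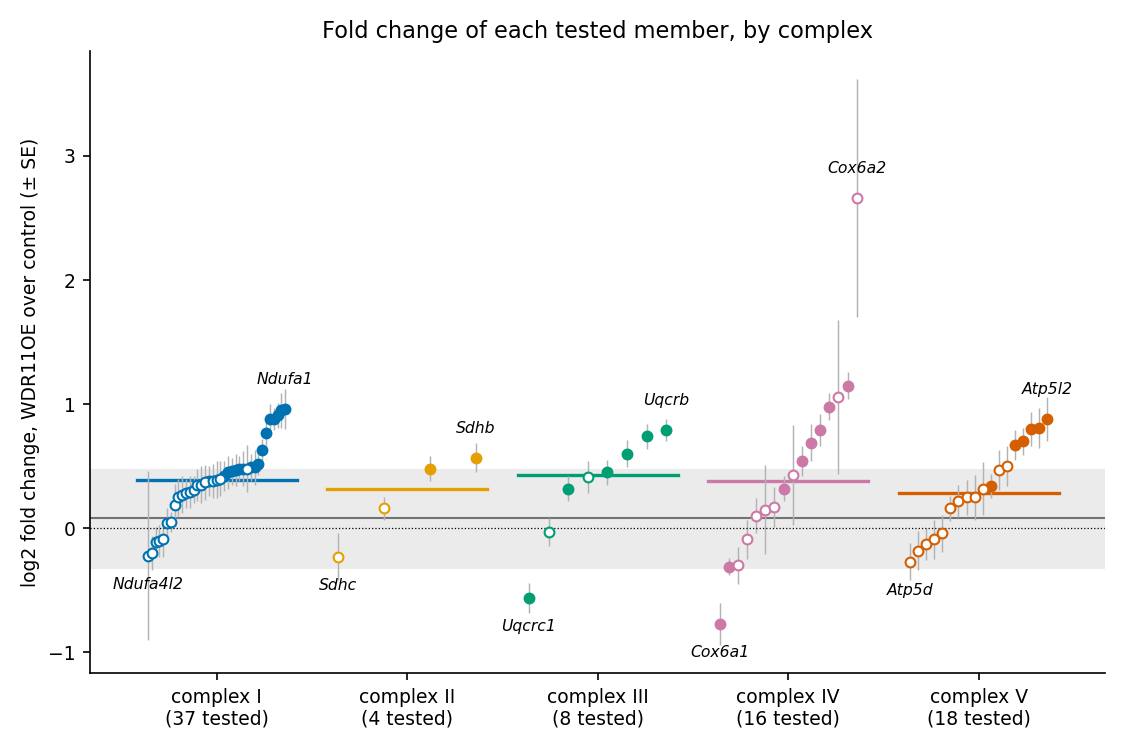
Log2 fold change of WDR11OE over control tumors (vertical axis, with the standard error as a bar) for the 83 tested members, sorted within complexes I to V. Filled points had an adjusted p under 0.05, coloured bars are the median of each complex, and the grey line and band are the median (0.08) and middle 50% of all 17389 genes (from −0.32 to 0.47). Medians of the complexes lie between 0.28 and 0.43, and complexes III and IV hold the lower calls.

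All 5 complexes had a median log2 fold change above that of all genes. It was 0.39 in complex I, 0.32 in complex II, 0.43 in complex III, 0.38 in complex IV and 0.28 in complex V. Calls were 17 higher and 0 lower of 37 tested in complex I, 2 and 0 of 4 in complex II, 5 and 1 of 8 in complex III, 6 and 2 of 16 in complex IV, and 6 and 0 of 18 in complex V. Genes of a complex are not replicates, so these medians were not tested against each other. The middle 50% of log2 fold changes ran from 0.27 to 0.49 in complex I, from 0.23 to 0.63 in complex III, from 0.01 to 0.63 in complex V and from 0.06 to 0.83 in complex IV, whose members spanned −0.77 to 2.66.

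The level of the members varied between tumors of the same group. The median of the members' log2 CPM, taken relative to the mean of the control tumors, was −0.08, −0.13 and 0.22 in control replicates 1 to 3. It was 0.46, 0.53, 0.29 and 0.25 in WDR11OE replicates 1 to 4. All WDR11OE medians lay above those of control tumors, but control replicate 3 was close to WDR11OE replicates 3 and 4. Over all genes tested, the same median was between −0.01 and 0.01 in the control tumors. It was 0.01, −0.01, 0.07 and 0.18 in WDR11OE replicates 1 to 4. Relative to all genes, the members were therefore raised less in WDR11OE replicate 4 than in control replicate 3. Summed over the members, the control tumors had 6606 ± 984 CPM (SD, n = 3) and the WDR11OE tumors 8193 ± 783 CPM (SD, n = 4). These sums overlapped, with 7727 CPM in control replicate 3 above the 7573 and 7486 CPM of WDR11OE replicates 3 and 4. Control replicate 3 was the highest control in 76 of 83 members. WDR11OE replicates 1 and 2, whose titles share a number that the other two do not, were both above replicates 3 and 4 in 62 of 83. Without WDR11OE replicate 1 or 2, 19 members were higher in either case (22.9%, against 8.80% and 9.34% of all genes), without WDR11OE replicate 3 there were 23 (27.7%, against 10.5%), and without control replicate 3 there were 47 (56.6%, against 15.4%), by the same edgeR test. Within each group, neuron markers were lowest in the tumors where the members were highest, control replicate 3 among controls and replicates 1 and 2 among WDR11OE tumors. Their summed level was 439, 145 and 63.4 CPM in control replicates 1 to 3 and 11.2, 26.3, 206 and 675 CPM in WDR11OE replicates 1 to 4, and none of the 8 was called between groups. The summed astrocyte markers were at 623, 580 and 360 CPM in control and 233, 237, 474 and 859 CPM in WDR11OE tumors, with 1 of 6 called higher (S100b). Marker lists of other brain and vessel cells did not keep this order in both groups. Microglia markers summed to 52.1, 120 and 69.4 CPM in control and 48.2, 42.4, 81.1 and 138 CPM in WDR11OE tumors. Oligodendrocyte markers summed to 285, 305 and 104 CPM in control and 150, 86.2, 119 and 313 CPM in WDR11OE tumors. Among WDR11OE tumors, the sums of endothelial and pericyte markers were highest in replicate 1. The part of any marker list in the members' levels was not tested.

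**Figure D2:**
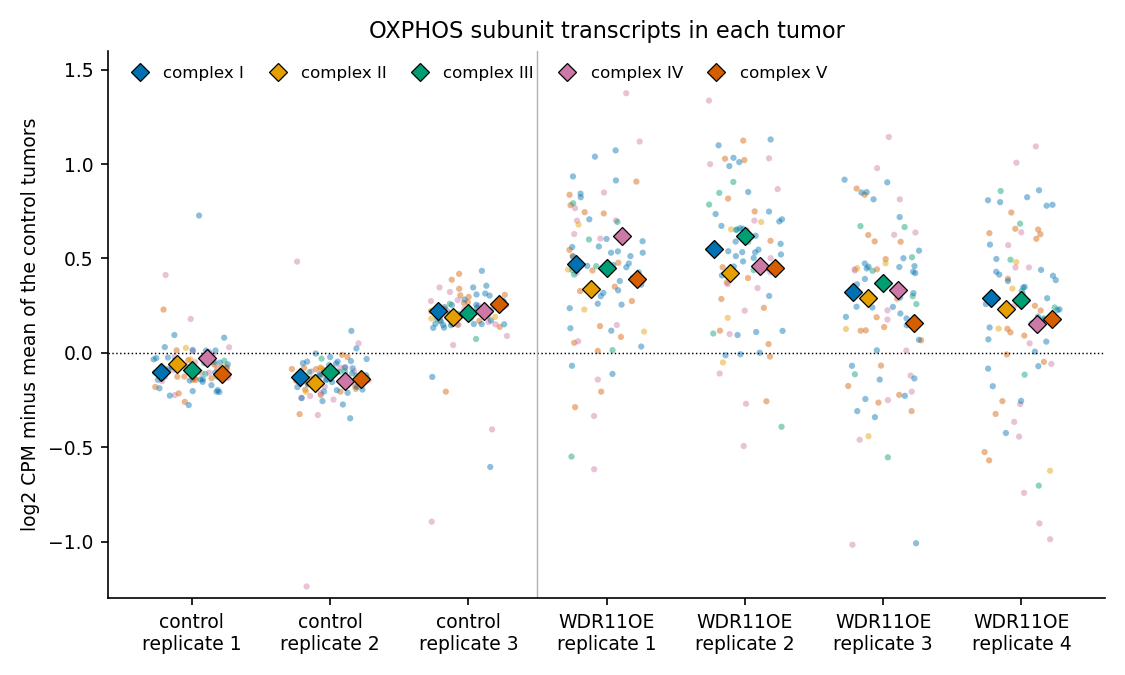
Log2 CPM of the 83 tested members minus the mean of the control tumors (vertical axis) in each of the 7 tumors, with small points for members and diamonds for the median of each complex. Medians of the 5 complexes are between 0.19 and 0.26 in control replicate 3, above the other controls, and between 0.15 and 0.29 in WDR11OE replicate 4. The median over all genes was 0.01 in control replicate 3 and 0.18 in WDR11OE replicate 4. Of 581 points, 7 lie outside the axis (Cox6a2, Cox4i2 and Ndufa4l2).

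Complex I, the NADH dehydrogenase, consists of core subunits that carry the flavin and iron-sulfur clusters and of accessory subunits around them. Of the 7 nuclear core subunits, 3 were higher and 0 lower (median log2 fold change 0.35), and of 28 accessory subunits 13 were higher and 0 lower (median 0.41). Ndufs1, which carries iron-sulfur clusters, was at 120, 95.4 and 125 CPM in control and 166, 161, 155 and 152 CPM in WDR11OE tumors. The groups did not overlap, and the log2 difference was 0.48 (standard error 0.10, adjusted p = 0.0105). This and all later adjusted p-values come from the quasi-likelihood test of edgeR. Ndufv2 (0.46, adjusted p = 0.0148) and Ndufs8 (0.38, adjusted p = 0.0449) were the other core subunits that rose, though Ndufv2 was at 0.19 (adjusted p = 0.259) with the trend in GC content removed and 0.04 (adjusted p = 0.834) with that in exon length removed as well. Log2 fold changes were 0.35 for Ndufv1, the NADH-binding subunit (adjusted p = 0.0722), 0.27 for Ndufs7 and 0.05 for Ndufs3. Ndufs3 ran from 41.7 to 49.3 CPM in control and from 42.8 to 48.7 CPM in WDR11OE tumors, so the groups covered nearly the same range.

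The largest changes in complex I were among accessory subunits. Ndufa1, a small membrane-arm subunit on chromosome X (34727583 to 34731158), was at 12.6, 12 and 17.6 CPM in control and 29.2, 29.7, 25 and 25.2 CPM in WDR11OE tumors. The change of 0.96 on the log2 scale (standard error 0.16, adjusted p = 0.00417) was the highest of the complex, and every WDR11OE tumor was above every control. Ndufs4, an accessory subunit whose loss in humans causes Leigh syndrome, was at 30.1, 27.0 and 33.3 CPM in control and 56.6, 59.6, 52.8 and 52.6 CPM in WDR11OE tumors (log2 fold change 0.88, standard error 0.09, adjusted p = 0.00108). Ndufa9 (0.95), Ndufa5 (0.91), Ndufb2 (0.77), Ndufb3 (0.63) and Ndufb5 (0.52) also rose, each without overlap between the groups. Ndufa4, named for complex I but now counted with complex IV, went from 68.3 to 89.8 CPM in control to 129 to 154 CPM in WDR11OE tumors (0.88, adjusted p = 0.00188). Its relative Ndufa4l2, known as a gene induced in low oxygen, was scattered, with 20.5, 11.4 and 8.12 CPM in control and 14.6, 22.4, 6.13 and 2.72 CPM in WDR11OE tumors (−0.22, adjusted p = 0.837).

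Complex II, succinate dehydrogenase, differed between its subunits. The iron-sulfur subunit Sdhb was at 72.4, 67.9 and 90.2 CPM in control and 122, 123, 104 and 106 CPM in WDR11OE tumors, and rose by 0.57 on the log2 scale (standard error 0.12, adjusted p = 0.00995). The membrane anchor Sdhd rose as well (0.48, adjusted p = 0.0117), without overlap. The other anchor, Sdhc, was at 86.3, 73.5 and 96.2 CPM in control and 91.7, 81.9, 62.4 and 55 CPM in WDR11OE tumors (−0.23, adjusted p = 0.397), and the flavoprotein Sdha had a log2 fold change of 0.16 (adjusted p = 0.223). Sdhc values overlapped between the groups, with WDR11OE replicates 3 and 4 below all controls. The log2 ratio of Sdhb to Sdhc within a tumor was −0.15 ± 0.09 (SD, n = 3) in control and 0.67 ± 0.23 (SD, n = 4) in WDR11OE tumors.

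In complex III, the pair of core proteins went in opposite directions. Uqcrc2 (chromosome 7, 127778690 to 127802992) was at 103, 104 and 129 CPM in control and 193, 200, 177 and 179 CPM in WDR11OE tumors. Uqcrc1 (chromosome 9, 108838661 to 108851685) was at 110, 110 and 144 CPM in control and 82.0, 91.6, 81.8 and 73.8 CPM in WDR11OE tumors. Neither gene overlapped between the groups, and the log2 fold changes were 0.74 (standard error 0.10, adjusted p = 0.00200) for Uqcrc2 and −0.56 (standard error 0.12, adjusted p = 0.0110) for Uqcrc1. Within each tumor, the log2 ratio of Uqcrc2 to Uqcrc1 was −0.09, −0.08 and −0.16 in control and 1.23, 1.13, 1.11 and 1.28 in WDR11OE tumors. The ratio thus set the groups apart by 1.30 on the log2 scale, with an SD of 0.04 in control and 0.08 in WDR11OE tumors. This and the other ratios were chosen after their values were seen and are given without a test. Uqcrb, which helps to bind ubiquinone, was the highest of the complex, with 24.4, 24.6 and 26.4 CPM in control and 40.6, 47.0, 40.0 and 45.5 CPM in WDR11OE tumors (0.79, adjusted p = 0.00117). With the GC and exon length trends both removed its value was 0.16 (adjusted p = 0.183). Uqcrh (0.60), Uqcr10 (0.45) and the Rieske iron-sulfur protein Uqcrfs1 (0.32, adjusted p = 0.0361) also rose, and Uqcrq had a log2 fold change of −0.03 (adjusted p = 0.843).

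Complex IV, cytochrome c oxidase, had the widest spread. Cox6c, a nuclear subunit without a tissue isoform (chromosome 15, 35855641 to 35868001), was the 1 member past the rule of the study. It was at 71.2, 65.4 and 80.8 CPM in control and 157, 182, 160 and 145 CPM in WDR11OE tumors, and rose by 1.15 on the log2 scale (standard error 0.11, adjusted p = 0.00104). Cox6a1, the isoform of subunit VIa found in most tissues (chromosome 5, 115795651 to 115798990), was at 103, 84.7 and 117 CPM in control and 65.5, 71.4, 49.7 and 50.7 CPM in WDR11OE tumors, and fell by 0.77 on the log2 scale (standard error 0.17, adjusted p = 0.0108). All WDR11OE tumors were therefore above the controls for Cox6c and below them for Cox6a1. The within-tumor log2 ratio of Cox6c to Cox6a1 went from −0.48 ± 0.09 (SD, n = 3) to 1.45 ± 0.19 (SD, n = 4).

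**Figure D3:**
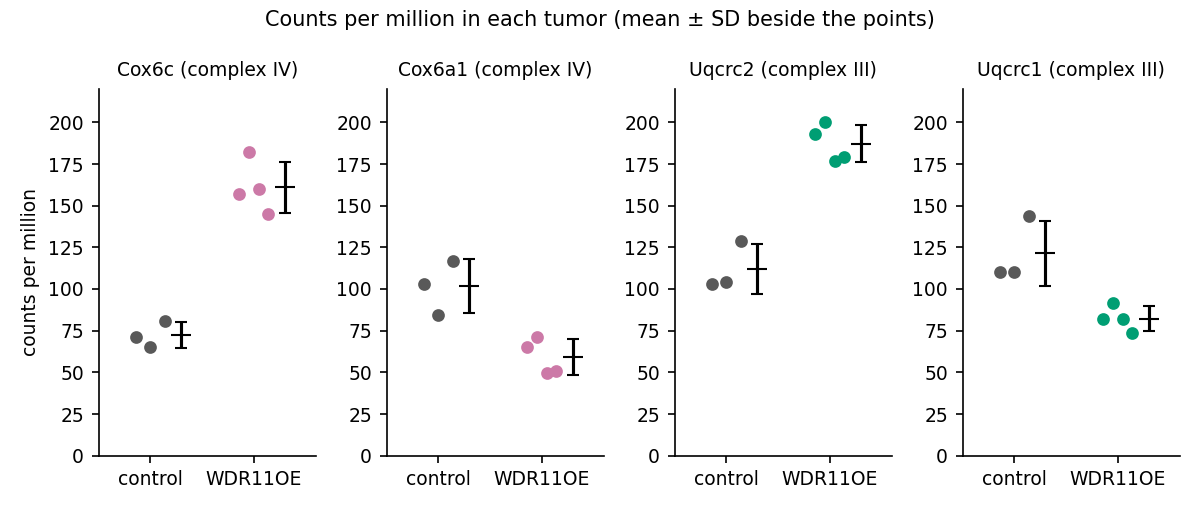
CPM (vertical axis, from 0) of Cox6c and Cox6a1 in complex IV and of Uqcrc2 and Uqcrc1 in complex III, with 1 point per tumor for 3 control and 4 WDR11OE tumors and the mean ± SD beside them. WDR11OE tumors lie at 145 to 182 CPM for Cox6c and 177 to 200 CPM for Uqcrc2, above all controls, and at 49.7 to 71.4 CPM for Cox6a1 and 73.8 to 91.6 CPM for Uqcrc1, below all controls.

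The lower calls of Cox6a1 and Uqcrc1 did not hold in every setting. Across genes, exons richer in GC had lower log2 fold changes, and with that trend removed the value was −0.31 for Cox6a1 (adjusted p = 0.196) and −0.27 for Uqcrc1 (adjusted p = 0.114), while Cox6c and Uqcrc2 had adjusted p = 0.00213 and adjusted p = 0.00660. With the GC and exon length trends both removed, Cox6a1 was at −0.63 (adjusted p = 0.0107) and Uqcrc1 at −0.47 (adjusted p = 0.0121). Without WDR11OE replicate 3, Uqcrc1 did not pass the threshold (−0.57, adjusted p = 0.0514). Of 17 refits, 16 kept the call of Cox6a1 and 15 that of Uqcrc1. Exons of Cox6c overlap Vps13b, and those of Uqcrc2 overlap Pdzd9, in the annotation. Vps13b was at 164 ± 22.6 CPM (SD, n = 3) and 183 ± 7.92 CPM (SD, n = 4) with a log2 fold change of 0.16 (adjusted p = 0.263), and Pdzd9 was below 0.1 CPM on average in both groups.

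The remaining ubiquitous subunits of complex IV rose or did not pass the threshold. Cox7b was at 69.1, 72.7 and 89.7 CPM in control and 138, 157, 151 and 164 CPM in WDR11OE tumors (log2 fold change 0.98, adjusted p = 0.00121). Cox7a2 (0.79), Cox7c (0.69), Cox6b1 (0.54) and Cox7a2l (0.32, adjusted p = 0.0467), the last a factor that joins complexes III and IV in supercomplexes, were also higher. Cox5b (−0.30, adjusted p = 0.178), Cox5a (−0.09), Cox8a (0.10) and Cox4i1 (0.17, adjusted p = 0.457) did not pass the threshold. Cox4i1 was at 339, 319 and 438 CPM in control and 471, 466, 365 and 347 CPM in WDR11OE tumors, with control replicate 3 above WDR11OE replicates 3 and 4. Cox4nb, which is no subunit, fell by 0.31 on the log2 scale (adjusted p = 0.0109).

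Isoforms of complex IV that are typical of heart and skeletal muscle were near the detection limit. Cox6a2 had 9, 0 and 1 counts in control and 21, 32, 34 and 44 counts in WDR11OE tumors, and the fitted log2 difference of 2.66 (standard error 0.96, adjusted p = 0.0689) depends on the prior count. Cox8b had 0 counts in every control and 12, 17, 14 and 7 counts in WDR11OE tumors, so the WDR11OE mean was at least 3.05-fold higher than a floor of 3 counts per control library. Cox7a1 stayed between 0.123 and 0.450 CPM in all 7 tumors (0.43, adjusted p = 0.458). Skeletal muscle markers were higher as well, 9 of 9 tested (median log2 fold change 6.34), with a summed level of 3.59 to 5.86 CPM in control and 47.6 to 141 CPM in WDR11OE tumors. Markers, Cox6a2 (1.05 CPM) and Cox8b (0.431 CPM) were all highest in WDR11OE replicate 3. Ckm, muscle creatine kinase, was at or below 0.0278 CPM in control tumors. Their part in the counts of Cox6a2 and Cox8b was not tested. Cox4i2, an isoform known from lung, was at 0.472, 0.525 and 0.521 CPM in control and 1.37, 1.81, 0.801 and 0.252 CPM in WDR11OE tumors (1.06, adjusted p = 0.234), and Cox6b2, known from testis, had a log2 fold change of 0.15 (adjusted p = 0.785). Cox7b2 and Cox8c had at most 4 counts in any tumor.

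In complex V, the alpha and beta subunits were the most abundant members and did not pass the threshold. Atp5b, the beta subunit, was at 775, 719 and 994 CPM in control and 1047, 1063, 860 and 976 CPM in WDR11OE tumors (log2 fold change 0.25, adjusted p = 0.228). Atp5a1, the alpha subunit, was at 631, 623 and 860 CPM in control and 969, 948, 755 and 674 CPM in WDR11OE tumors (0.25, adjusted p = 0.341). In both genes control replicate 3 lay within the range of the WDR11OE tumors. The gamma subunit Atp5c1, the rotating shaft between them, was at 144, 138 and 180 CPM in control and 263, 269, 230 and 241 CPM in WDR11OE tumors, without overlap (0.70, standard error 0.11, adjusted p = 0.00370). Atp5k (0.81), Atp5j2 (0.80), Atp5h (0.67) and Atp5f1 (0.34, adjusted p = 0.0346), subunits of the membrane part and the stator, were also higher. For Atp5f1 the value was −0.01 (adjusted p = 0.978) with the GC trend removed, and 7 of 17 refits kept its call. The delta and epsilon subunits had log2 fold changes of −0.27 (Atp5d, adjusted p = 0.206) and −0.04 (Atp5e, adjusted p = 0.884). The genes for subunit c, which forms the rotating ring, had log2 fold changes of −0.18 (Atp5g1), 0.32 (Atp5g2) and −0.09 (Atp5g3), with adjusted p-values of 0.430, 0.295 and 0.710. Atp5l2, the pseudogene named after subunit g, had the highest log2 fold change of the names in this complex (0.88, adjusted p = 0.00981), from 3.27 to 4.32 CPM in control and 5.96 to 8.27 CPM in WDR11OE tumors. Its reads may be shared with those of Atp5l, at 0.47 (adjusted p = 0.0651), and 9 members have pseudogenes named after them in RefSeq.

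Levels were compared between genes as CPM per kilobase of transcript in control tumors, over the 82 tested members with a transcript length. Cox4i1 was highest at 538, followed by Atp5b at 433, Atp5a1 at 285, Uqcrh at 228 and Atp5o at 223 CPM per kilobase. The median was 71.9 and the lowest, Cox6a2, was at 0.142 CPM per kilobase. Subunits of complex II were between 56.5 (Sdha) and 105 (Sdhc) CPM per kilobase.

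The members are short genes, and log2 fold changes were larger in short genes across the whole table. The median summed exon length was 1243 bases in members and 3307 bases in all tested genes. Across genes, which are not independent, Spearman's rho of the log2 fold change with exon length was −0.28 over the 83 members and −0.19 over 17125 genes with a length. Among genes of up to 1000 bases of exon, 15 of 33 members (45.5%) were higher beside 25.2% of 2028 genes, with median log2 fold changes of 0.43 and 0.32. Above 1000 bases, 21 of 50 members (42%) were higher beside 17.1% of 15097 genes, with medians of 0.33 and 0.06. When the trend with exon length was removed, the median of the members was 0.20 beside 0.06 over all genes, and 28 members were higher (33.7%, against 16.8% of all genes) and 6 lower (7.23%, against 16.2%). Of the 39 calls, 31 were kept in the same direction. Genes lower after this step alone were Ndufa8 (−0.32), Cox5a (−0.34) and Cox5b (−0.58). With the GC trend removed, 40 were higher (48.2%, against 13.4%) and 1 lower (1.20%, against 14.3%), with a median of 0.45. With both trends removed, 25 were higher (30.1%, against 11.9%) and 4 lower (4.82%, against 12.8%), with a median of 0.19. With the trend in transcript length removed, 26 were higher (31.3%, against 17.3%) and 8 lower (9.64%, against 14.6%), with a median of 0.20. Some named calls were lost. Without the exon length trend these were Ndufs8 (0.18), Uqcrfs1 (0.16) and Cox7a2l (0.13), and without the GC trend Ndufs1 (0.31, adjusted p = 0.0520) and Uqcrfs1 (0.29, adjusted p = 0.0587). Sdhd (0.22), Cox7c (0.32), Ndufb3 (0.15), Cox4nb (−0.16) and Atp5l2 (0.36) were lost with both trends removed.

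**Figure D4:**
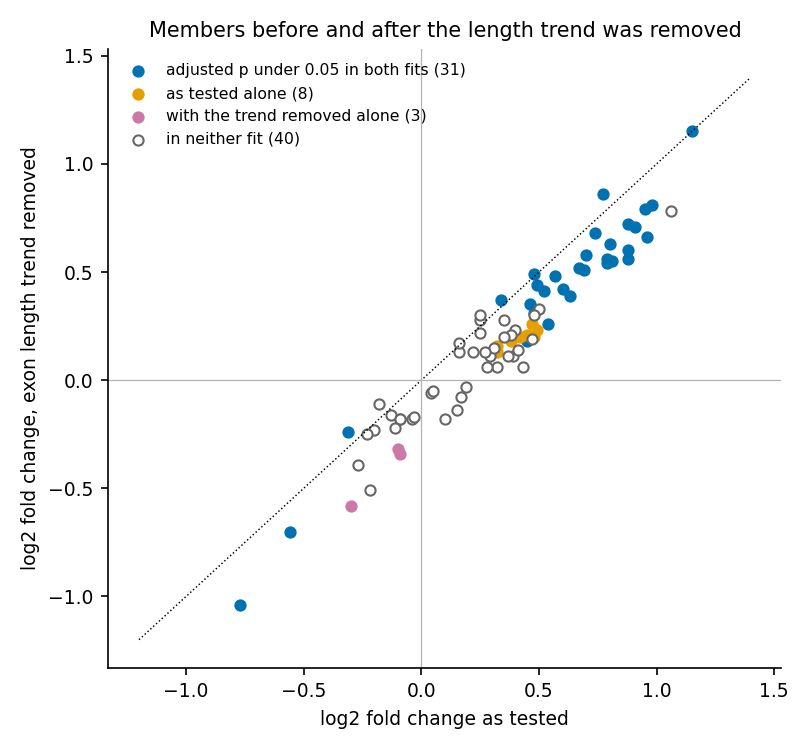
Log2 fold change of members as tested (horizontal axis) and with the trend in exon length removed (vertical axis), with the diagonal dotted and colours for an adjusted p under 0.05 in both fits (31), as tested alone (8), after removal alone (3) or in neither (40 of the 82 plotted). Most points lie below the diagonal, Cox6c lies on it at 1.15, and Cox6a2 is outside the axes.

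Across 17 refits of the test, with other scalings, filters, tools, trends removed or a tumor left out, 16 members were higher at an adjusted p under 0.05 in every one. They were Ndufa1, Ndufa4, Ndufa5, Ndufa9, Ndufb2, Ndufb5 and Ndufs4, Uqcrc2 and Uqcrh, Cox6c, Cox7a2 and Cox7b, and Atp5c1, Atp5h, Atp5j2 and Atp5k. Complex II had no gene among them, and 0 members were lower in every refit. The share of all genes tested that were called in every refit, higher or lower, was not counted. Among core subunits and isoform families, calls lost without a single tumor were those of Uqcrc1 (without WDR11OE replicate 3), and Sdhb and Cox6b1 (without WDR11OE replicate 1 or 2). So were those of Ndufs1 and Sdhd (without WDR11OE replicate 1, 2 or 3), Ndufv2 (4 of 7 tumors left out in turn) and Uqcrfs1 (5 of 7). The calls of Ndufs8 and Cox7a2l were lost in 6 of 7, all but control replicate 3. Losses by tumor are not given for the other members. Over all 17 refits, Uqcr10 kept its call in 11, Atp5f1 in 7 and Cox7c in 14. Exons of 18 tested members, 9 of them called, overlap those of another gene, and the labels name a library kit that does not mark strand while the methods call the data stranded, so reads in such exons may belong to either gene. Of the 16, this concerns Cox6c, Uqcrc2, Ndufb2 and Ndufb5, the last sharing exons with Mrpl47, which also rose (0.49, adjusted p = 0.00707).

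Other genes of the same machinery were examined as lists. Beside the 18.1% higher and 15.8% lower of all genes, 3 of 6 subunits and carriers outside the name rule were higher (50%) and 0 lower, with a median of 0.61, and 1 was higher (median 0.21) with the GC and exon length trends both removed. Cycs, cytochrome c, rose from 49.4 to 63.8 CPM in control to 96.8 to 119 CPM in WDR11OE tumors (0.95, adjusted p = 0.00155), and the ATP synthase components Usmg5 (0.86) and 2010107E04Rik (0.84) rose too. Cyc1, the cytochrome of complex III, had −0.17 (adjusted p = 0.460), the carrier protein Ndufab1 −0.03 and the inhibitor Atpif1 0.38 (adjusted p = 0.0551). Of 28 assembly factors, 9 were higher (32.1%) and 1 lower (3.57%), with a median of 0.21, and 5 were higher with the GC trend removed (17.9%, against 13.4% of all genes). The higher ones included Nubpl (0.81), Ndufaf4 (0.72), Ndufaf2 (0.64) and Foxred1 (0.63), which act on complex I, and Cox17 (0.57), a copper chaperone of complex IV. Nubpl, Foxred1 and Cox17 kept their calls with either the exon length or the GC trend removed. Ndufaf4 lost its call with the GC trend removed (0.34, adjusted p = 0.0568). Ndufaf2 lost its call with the GC trend (0.57, adjusted p = 0.0628) or the exon length trend removed (0.38, adjusted p = 0.0713). Cox10, which takes part in making heme A, fell by 0.46 on the log2 scale (adjusted p = 0.00772). Of the 13 subunits encoded in mitochondrial DNA, 7 were higher (53.8%) and 0 lower, with a median of 0.54. The sign of their median turned when the GC trend was removed. With the exon length trend removed the median was 0.22 and 1 was higher (7.69%, against 16.8% of all genes), mt-Nd6 (1.21, adjusted p = 0.00108). With the GC trend removed the median was −0.17, with 1 higher (7.69%, against 13.4%) and 2 lower (15.4%, against 14.3%). With both removed it was −0.44, with 1 higher (7.69%, against 11.9%) and 5 lower (38.5%, against 12.8% of all genes). Their summed level was 12849, 9771 and 8888 CPM in control and 13795, 15115, 15545 and 16222 CPM in WDR11OE tumors, and within the controls it was lowest in replicate 3, where the nuclear members were highest.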

How the data were processed

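RNA sequencing counts of 7 tumors were analysed. The deposited values are raw read counts per gene, which the authors obtained with HTSeq on GENCODE genes after mapping to NCBIM37 (mm9); the submitters' processing notes also name CASAVA 1.7, STAR and BWA. The members, lists and named genes were chosen with earlier results of these data known. Named genes were the lowest and highest log2 fold change of each complex, members past the rule of the study, core subunits, isoform families and members that were not tested, and 1 of these genes is not reported here.

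Counts were fitted with edgeR 4.0.16 in R 4.3.3 (filterByExpr, TMM scaling, quasi-likelihood F test, two-sided, Benjamini-Hochberg over 17389 genes), with condition as the only term. Standard errors are the log2 fold change divided by the square root of F. The typical biological coefficient of variation was 34.6%. CPM used TMM-scaled library sizes, and log2 CPM a prior count of 2. Trends with GC content and length were removed with loess offsets (span 0.3) computed from the annotation. Alternatives were limma 3.58.1 (voom), DESeq2 1.42.0, other scalings and filters, an adjusted p under 0.01, each tumor left out, and members left out by name. Transcript length and the removal of Cox4nb and Atp5l2 were added after the data were seen. The code was tested on simulated data. Libraries of a group differed by far more than sampling noise (chi-square per degree of freedom at least 21.3). All columns were mapped to samples. Totals of 32116095 to 87141305 counts set a floor of 3 counts at 0.0329 to 0.0924 CPM, which covers counting error only. Promoter windows are RefSeq sequences (GRCm38.p6 table) placed on NCBIM37 by exact match.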

Additional observations from a re-analysis of the deposited data

How the results depend on the processing

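The number of higher members stayed within 1.5 times of 36 under other scalings, filters and tools, and was 20 at an adjusted p under 0.01. With each tumor left out in turn it ranged from 19 to 47. The number of lower members was 1 with the GC trend removed, 0 at an adjusted p under 0.01 (where edgeR's quasi-likelihood test called 3 at 0.05), 6 with the exon length trend removed and 8 with the transcript length trend removed. The median log2 fold change of all members was 0.20 with either length trend removed and 0.19 with GC and exon length removed together. For complex I these medians were 0.21, 0.21 and 0.20, and for complex III 0.17 (exon length), 0.19 (transcript length) and 0.20 (both). Complex II had 0.17 with both removed. Complex IV had 0.09 (exon length), 0.13 (transcript length), 0.15 (both) and 0.17 with genes kept at 1 CPM in 3 tumors, a filter that leaves out its low isoforms. Fewer genes or samples tested are part of some of these settings, and beyond that the cause was not tested.

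For the 40 named genes, 605 of 717 refitted values kept their direction and their side of the threshold, 69 were weaker and 18 stronger. The other 25 changed sign, in genes that were not called. With exon length, transcript length or both trends removed, Ndufs3 was at −0.05, −0.10 and −0.12, Cox4i1 at −0.08 and −0.03, Cox6b2 at −0.14, −0.09 and −0.01, and Cox8a at −0.18 and −0.13. With the GC trend removed, Ndufa4l2 was at 0.11 and Atp5d at 0.06. Without a filter, Ndufs3 was at −0.0036. With 1 tumor left out, the ranges were −0.79 to 0.23 for Ndufa4l2, −0.01 to 0.12 for Ndufs3, −0.20 to 0.09 for Cox5a, −0.18 to 0.07 for Atp5e, −0.08 to 0.37 for Cox6b2, −0.03 to 0.22 for Cox8a and −0.20 to 0.10 for Atp5g3. No paired analysis was possible because the labels give the groups no shared replicate numbers.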

Other observations

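Pyruvate dehydrogenase and the TCA cycle feed electrons into the respiratory chain. Of 17 genes on that list, 7 were higher (41.2%, against 18.1% of all genes), 1 was lower (5.88%, against 15.8%) and 9 did not pass the threshold in the edgeR quasi-likelihood test with adjustment by the Benjamini-Hochberg method, with a median log2 fold change of 0.28. Dld, the lipoamide dehydrogenase shared by several dehydrogenase complexes, rose from 75, 81.5 and 91.3 CPM to 126, 132, 127 and 123 CPM (log2 fold change 0.62, adjusted p = 0.00162). Ogdh, which works with Dld in the oxoglutarate dehydrogenase complex, went from 127, 133 and 140 CPM to 76.2, 78.3, 94.1 and 88.7 CPM (−0.66, adjusted p = 0.00200). Neither gene overlapped between the groups. Pdhb (0.53), Sucla2 (0.51), Suclg1 (0.48), Idh3g (0.47), Pdha1 (0.41) and Idh3b (0.33) were also higher, and citrate synthase (Cs) had −0.04 (adjusted p = 0.837). With the GC trend removed, 5 of the list were higher (29.4%, against 13.4% of all genes) and 2 lower (11.8%, against 14.3%). Dld (0.25, adjusted p = 0.0974), Sucla2 (0.20, adjusted p = 0.0887) and Pdha1 (0.21, adjusted p = 0.207) then did not pass the threshold. With the GC and exon length trends both removed, 4 were higher (23.5%, against 11.9%) and 1 lower (5.88%, against 12.8%).

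Of 14 regulators of mitochondrial biogenesis and transcription, 2 were higher (14.3%, against 18.1% of all genes), 3 were lower (21.4%, against 15.8%) and 9 did not pass the threshold, with a median of −0.03. These shares, with no trend removed, are near those of all genes. Pprc1, a coactivator of nuclear genes for mitochondrial proteins, went from 139, 142 and 136 CPM to 54.2, 63.0, 82.7 and 69.7 CPM (−1.05, adjusted p = 0.00166). Polrmt, the mitochondrial RNA polymerase, went from 40.9, 46.8 and 46.6 CPM to 26.8, 28.1, 26.7 and 24.9 CPM (−0.75, adjusted p = 0.00111), and the helicase Peo1 had −0.48 (adjusted p = 0.00785). Tfam, which packages mitochondrial DNA, rose (0.45, adjusted p = 0.00949), as did Tfb1m (0.55, adjusted p = 0.0454). The call of Tfb1m was lost with the exon length trend removed (0.38, adjusted p = 0.118) and with the GC trend removed (0.39, adjusted p = 0.144). With the GC trend removed, 1 of the 14 was higher (7.14%, against 13.4% of all genes). In that fit 4 were lower (28.6%, against 14.3%), with a median of −0.11. Transcripts of the factors whose letters were searched in promoters did not pass the threshold, with 0.12 for Nrf1, −0.04 for Gabpa, −0.18 for Yy1 and −0.05 for Esrra. With the GC trend removed, Gabpa was lower (−0.38, adjusted p = 0.0113), and Nrf1, Yy1 and Esrra still did not pass.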
